A study of Mus musculus with 12 samples.

Results

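Transcription factors of sensory hair cells, Atoh1, Gfi1, Pou4f3, Lhx3, Barhl1, Insm1, Ikzf2, Bcl11b and Tbx2, were described in single cells of the mouse cochlea at E16.5, E17.5 and E18.5. They are 9 of the 24489 genes of the deposited count table, chosen by name, and were measured in 86 hair cell-like (HC-like) cells among 2262 cells. The HC-like cells were set against 1444 spiral ganglion neuron-like (SGN-like), 463 glia-like and the otic mesenchyme-like (OM-like) cells, of which there were 87, 46 and 10 at the 3 stages, and 126 cells stayed without a class. Cells were clustered and named from fixed lists of marker genes, and neither step used the 9 genes.

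Hair cells turn sound and head movement into electrical signals. The cochlea holds inner hair cells, which drive most auditory nerve fibres, and outer hair cells, which amplify sound, while the balance organs hold vestibular hair cells. Atoh1, a basic helix-loop-helix factor, starts hair cell formation in the precursors of the sensory epithelium. Gfi1 (a zinc-finger repressor), Pou4f3 (a POU-domain factor), Lhx3 (a LIM-homeodomain factor) and Barhl1 (a homeodomain factor) act later, and Gfi1, Pou4f3 and Barhl1 are needed for the survival of hair cells. Insm1, a zinc-finger factor also present in young neurons, keeps early outer hair cells from taking on inner hair cell features, Ikzf2 drives the later outer hair cell programme, Bcl11b is a zinc-finger marker of outer hair cells, and Tbx2, a T-box factor, is required for the inner hair cell identity.

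Cells came from PVcre;Ai14 mice, in which Cre under parvalbumin control switches on a red reporter, and every group compared here carries both alleles. Red cells of dissected cochleae were sorted singly, 1 per well of 384-well plates, and their libraries were made by Smart-seq2, a full-length method without molecular barcodes. Each deposited sample is 1 plate, taken here as 1 replicate, and the plates were 3 of E16.5, 1 of E17.5 and 2 of E18.5, with cells of several embryos pooled in each plate. Parvalbumin comes on late in hair cells, so that the sort takes the cells that had already switched on the driver. The comparisons hold no other genotype or treatment, and a plate of another driver line, TrkCcre, exists at E14.5 only.

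Kept cells held 80997594 to 156833487 counts per plate, with a median of 232473 to 442451 counts per cell. The plates of E16.5 replicate 3 and E17.5 stood apart from the other 4 in their median number of genes per cell, with 4695 and 4691 against 8426 to 9629.5. HC-like cells were rare and uneven: 4, 0 and 8 in the replicates of E16.5, 5 at E17.5, and 37 and 32 at E18.5. All 11 HC markers (among them Myo7a, Myo6 and Otof) were counted in each of the 5 plates with HC-like cells, at a summed level of 4645 to 9898 CPM (counts of a gene scaled to a common library total), against 274 to 308 in SGN-like, 120 to 225 in glia-like and 128 to 286 in OM-like cells. Markers of supporting cells, which adjoin hair cells in the epithelium, were also high in the HC-like sums, at 4271 to 8525 CPM against at most 468 in any other class, led at E18.5 by Otog and Tectb. Their part in the results was not tested. The 10 OM-like cells of E18.5 held more glial than mesenchymal marker counts, with medians of 7661 and 3962 CPM, so the OM-like group rests mainly on the earlier plates. Glia-like sums also held neuronal markers, at 4433 to 6486 CPM on 4 plates and at 637 and 592 on E16.5 replicate 3 and E17.5. SGN-like sums in turn held glial markers, at 65.2 to 3530 CPM, with a median of 3394 CPM per cell at E18.5.

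Positions are those of the mm10 annotation. Atoh1 is at chr6:64729125-64731245 (plus strand), Gfi1 at chr5:107716657-107726036 (minus), Lhx3 at chr2:26200212-26208289 (minus) and Barhl1 at chr2:28907679-28916668 (minus). Insm1 is at chr2:146221921-146225020 (plus), Ikzf2 at chr1:69531214-69687245 (minus), Bcl11b at chr12:107910403-108003602 (minus) and Tbx2 at chr11:85832551-85841948 (plus). Gfi1, Lhx3 and Ikzf2 each overlap a gene on the opposite strand (A430072P03Rik, Gm27196 and Gm29114), and since counting by strand is not stated, reads of these pairs cannot be told apart.

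Promoters are shown for Atoh1 and Barhl1 because both genes had high levels in hair cells and because Barhl1 carries, just before its start, an E-box, the kind of motif that basic helix-loop-helix factors such as Atoh1 bind. They are the 250 bases before the RefSeq start (GRCm38.p6), written 5′ to 3′ on the gene's strand, with CAGCTG or CAGATG in capitals, and both motifs were searched on both strands.
Atoh1, chr6:64728875-64729124 (plus strand): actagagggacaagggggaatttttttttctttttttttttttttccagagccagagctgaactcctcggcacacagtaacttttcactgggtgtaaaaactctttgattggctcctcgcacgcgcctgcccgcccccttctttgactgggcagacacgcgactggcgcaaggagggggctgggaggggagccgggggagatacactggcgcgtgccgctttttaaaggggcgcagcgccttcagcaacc
Barhl1, chr2:28916669-28916918 (minus strand): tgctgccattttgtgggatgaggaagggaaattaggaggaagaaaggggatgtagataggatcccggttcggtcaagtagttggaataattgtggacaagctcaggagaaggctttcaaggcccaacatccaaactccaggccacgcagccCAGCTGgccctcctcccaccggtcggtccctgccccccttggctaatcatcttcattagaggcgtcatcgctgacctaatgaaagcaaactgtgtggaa
The Barhl1 match lies 99 bases before the start, and the Atoh1 window holds neither motif. Of 32851 promoters of this length, 25.5% hold CAGCTG or CAGATG, so a match of these letters is common. RefSeq entries, 8 promoters in all, were matched for 5 of the 9 members. A second Barhl1 promoter and 1 Lhx3 promoter also held a match, and those of Gfi1 and Bcl11b held none.

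The members Atoh1, Gfi1, Pou4f3, Lhx3, Barhl1 and Tbx2, were higher in HC-like cells than in each of the 3 other classes, and Insm1, Ikzf2 and Bcl11b passed the test in none of the 3 comparisons. Counts of each class and plate were summed and tested with edgeR's quasi-likelihood test, and calls needed a p below 0.05 after Benjamini-Hochberg adjustment over all genes. Of 15630 genes tested, 17.6% were higher in HC-like than in SGN-like cells, 14.1% than in glia-like cells and 12.8% than in OM-like cells, against 6 of the 9 members each time. Genes lower in HC-like cells were 15.9%, 14.6% and 13.7%, with none of the members among them. The median log2 fold change of the 9 members was 8.17, 9.37 and 10.02 in these comparisons, and that of all genes tested -0.07, -0.18 and -0.18. The comparisons share the HC-like sums. The members were chosen as hair cell factors, and the study named its hair cells by Atoh1, Gfi1 and Pou4f3 together with markers used here. Their higher level in HC-like cells is therefore not a finding of its own, and the shares of all genes are no test of the members. Gfi1, with 19 counts in SGN-like and 0 in glia-like and OM-like cells, passed the filter on low counts through the HC-like sums alone.

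**Figure D1:**
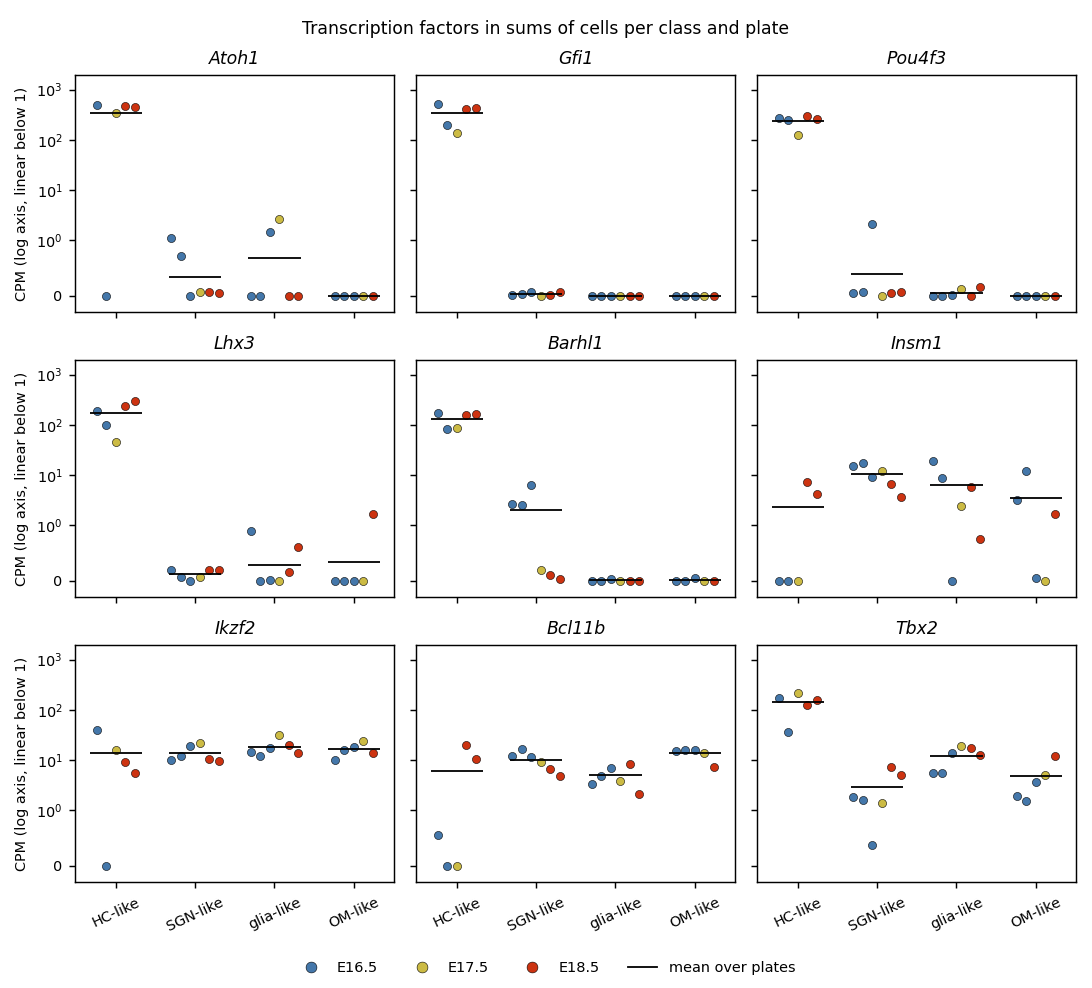
Levels of the 9 members in the sums of HC-like, SGN-like, glia-like and OM-like cells; each point is 1 plate, coloured by stage, the line is the mean over plates, and the axis is CPM on a scale that is linear below 1 and logarithmic above. HC-like plates lie above all others for Gfi1, Pou4f3, Lhx3, Barhl1 and Tbx2, while for Insm1, Ikzf2 and Bcl11b the classes overlap. How many of all genes lie apart in this way was not counted, so this describes the plot.

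Values below are TMM-normalised CPM, and HC-like plates are given in the order E16.5 replicate 1, E16.5 replicate 3, E17.5, E18.5 replicate 1 and E18.5 replicate 2. Atoh1 stood at 484, 0, 345, 473 and 444 CPM in HC-like cells, a mean of 349.04 ± 203 (SD, n = 5). In SGN-like cells it was 0 to 1.08 CPM over 6 plates, in glia-like cells 0 to 2.63 and in OM-like cells 0 over 5 plates. Atoh1 was thus high in all HC-like plates but the 8 cells of E16.5 replicate 3, where no Atoh1 count was found and where HC-like and other sums overlap. Of those 8 cells, 4 held no count of any member, as described below. The log2 fold change was 10.50 (SE 1.65) against SGN-like cells, with an adjusted p of 0.000192 in edgeR's quasi-likelihood test after Benjamini-Hochberg adjustment. Against glia-like cells it was 9.37 (SE 1.60), and against the OM-like cells, with 0 counts, Atoh1 was at least 4533-fold higher. The few Atoh1 counts elsewhere sat in few cells, with 3 of 1444 SGN-like cells holding 91.5% of the 211 counts of that class.

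Gfi1 had the highest share of its counts in hair cells of the 9 members. Its HC-like levels were 522, 193, 137, 412 and 421 CPM, a mean of 337 ± 164 (SD, n = 5), against at most 0.0760 CPM in any SGN-like plate. HC-like cells were 3.80% of the cells and held 99.8% of all 10105 Gfi1 counts. The log2 fold change against SGN-like cells was 13.12 (SE 0.56, adjusted p 9.07e-08 in edgeR's test with Benjamini-Hochberg adjustment). No Gfi1 count was found in glia-like or OM-like cells, which puts HC-like cells at least 13246-fold and at least 4254-fold higher, with a floor of 3 counts over each class.

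Pou4f3 reached 273, 248, 125, 294 and 263 CPM in HC-like cells, a mean of 240.5 ± 66.8 (SD, n = 5). In SGN-like cells it lay between 0 and 2.12 CPM and in glia-like cells between 0 and 0.151, so that the lowest HC-like plate, E17.5, was still far above the highest of the other classes. The log2 fold change was 10.13 (SE 1.21) against SGN-like and 12.01 (SE 1.37) against glia-like cells, with adjusted p of 1.47e-05 and 1.28e-05 by edgeR's test and Benjamini-Hochberg adjustment. Against OM-like cells, with 0 counts, the bound was at least 2896-fold.

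Lhx3 levels in HC-like cells were 189, 100.1, 45.3, 232 and 291 CPM, lower on the plates of few genes per cell. At E17.5 the value came from a single cell, at 206 CPM, and the other HC-like cells of that plate held no Lhx3 count. The other classes stayed at or below 1.68 CPM, a value that came from 3 counts in the 6 OM-like cells of E18.5 replicate 1. Lhx3 was higher in HC-like cells by a log2 fold change of 10.37 (SE 0.95) against SGN-like and 9.61 (SE 0.96) against glia-like cells, and edgeR's adjusted p after Benjamini-Hochberg adjustment was 2.11e-07 and 7.26e-07. Against the 3 counts of the OM-like sums the ratio of CPM was 2526, with a 95% counting interval of 864 to 12255.

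Barhl1 stood at 174, 82.6, 84.2, 158 and 167 CPM in HC-like cells. In SGN-like cells it was 2.65, 2.51 and 6.41 CPM in the 3 plates of E16.5 and at most 0.192 CPM in the later ones. Those SGN-like counts were held by 22 cells, 3 of which carried 75.1% of them. Barhl1 was higher in HC-like cells by 8.17 on the log2 scale (SE 0.98, adjusted p 5.01e-06 by edgeR and Benjamini-Hochberg). Glia-like and OM-like sums held 2 counts and 1 count, for ratios of 7735 (95% counting interval 2140 to 63892) and 4968 (891 to 196265). Barhl1 was also lower in glia-like and in OM-like than in SGN-like cells, by log2 fold changes of -6.17 (SE 1.23) and -5.73 (SE 1.44) with edgeR adjusted p of 0.00436 and 0.0119 after Benjamini-Hochberg adjustment, where 3.60% and 3.89% of all genes were lower and 13.8% and 14.7% were called in all. Without the plate of E16.5 replicate 3 both calls were lost, with edgeR adjusted p of 0.0801 and 0.175 after Benjamini-Hochberg adjustment, while the log2 fold changes were -6.71 (SE 2.19) and -7.13 (SE 3.25).

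Tbx2 had the smallest difference of the 6. HC-like levels were 173, 36.8, 220, 125 and 156 CPM, a mean of 142 ± 68.2 (SD, n = 5), with the lowest value again on E16.5 replicate 3. SGN-like cells ranged from 0.373 to 7.09 CPM, glia-like cells from 5.51 to 18.8 and OM-like cells from 1.48 to 11.8, none of which reached the lowest HC-like plate. The log2 fold changes were 5.80 (SE 0.57) against SGN-like, 3.48 (SE 0.51) against glia-like and 4.89 (SE 0.60) against OM-like cells, with adjusted p of 4.57e-07, 5.35e-05 and 1.01e-05 by edgeR's test and Benjamini-Hochberg adjustment. Among the classes without hair cells, Tbx2 was the one member higher in glia-like than in SGN-like cells (log2 fold change 2.32, SE 0.49, edgeR adjusted p 0.00630 after Benjamini-Hochberg adjustment), a direction called in 10.2% of all genes. It was higher in glia-like cells in 6 of 6 plates. Glial markers in SGN-like sums and neuronal markers in glia-like sums are given above, and their part was not tested. HC-like cells held 47.2% of all Tbx2 counts.

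Insm1, Ikzf2 and Bcl11b were low in the HC-like sums and were present in all 3 other classes. Insm1 was at 0, 0, 0, 7.22 and 4.18 CPM in HC-like cells and between 3.62 and 17.4 in SGN-like cells. Bcl11b was at 0.544, 0, 0, 19.6 and 10.5 CPM in HC-like cells and between 4.81 and 16.2 in SGN-like cells. Both genes had their HC-like counts at E18.5, with a single Bcl11b count before. No cell of E16.5 or E17.5 was named OHC-like in the division by subclass below, and the part of this was not tested. That depends on the naming rule, since a hair cell sub-cluster named outer by its mean scores held 2 cells of E16.5 replicate 1 and 1 of E17.5. Ikzf2 was at 39.2, 0, 15.4, 9.05 and 5.44 CPM in HC-like cells and between 9.44 and 21.95 in SGN-like cells, with a fitted log2 difference of 0.00 (SE 0.63). Against SGN-like cells the log2 fold change was -2.12 (SE 1.65) for Insm1 and -1.13 (SE 1.01) for Bcl11b. Over all kept cells, 2.16% of Insm1, 2.76% of Ikzf2 and 4.96% of Bcl11b counts lay in HC-like cells, which held 4.00% of all counts. In glia-like cells, which also held neuronal markers, Insm1 ranged from 0 on E16.5 replicate 3 to 19.3 CPM, and the part of those neuronal transcripts was not tested.

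Levels of different genes were compared per kb of exon in the 2 HC-like sums of E18.5, with 69 cells. Atoh1 was the most abundant member at 209 and 223 CPM per kb, followed by Gfi1 at 129 and 132, Pou4f3 at 109.5 and 123, and Lhx3 at 76.3 and 95.6. The values of these neighbours did not overlap between the plates. Barhl1 (40.3 and 42.9) and Tbx2 (34.6 and 43.0) overlapped, as did Bcl11b (1.29 and 2.42) and Insm1 (1.35 and 2.33), and Ikzf2 was lowest at 0.469 and 0.780 CPM per kb. With a pair of plates this order is a description.

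Single HC-like cells of E18.5 held counts of a median of 7 members (range 2 to 9), against a median of 2 (range 0 to 5) in SGN-like cells. Gfi1 and Pou4f3 were found together in 67 of the 69 cells and were both absent from the other 2. Those 2 also held no count of Atoh1, Lhx3 or Barhl1 and got no subclass in the division below. Summed HC markers ran from 196 to 13233 CPM in the 6 cells of E18.5 without a subclass. They were at 4918 CPM or more in each cell with a subclass, and at a median of 273 CPM in SGN-like cells. At E16.5 the median was 4 members, and 4 of 12 HC-like cells held none, all of them on replicate 3, the plate of few genes per cell. Of these 4, 3 had no subclass, and the VHC-like one had 4245 genes, against 1057 in a cell of that plate with Pou4f3. Sums of HC-like cells without a subclass held 3 to 11 of the HC markers, at 687 to 9332 CPM over 4 plates, so the name is less sure for such cells. At E17.5 the 5 HC-like cells held a median of 2 members (range 1 to 6). Of these, 4 fell in a sub-cluster of hair cells led by Col1a2, a mesenchymal marker here. Gfi1, Pou4f3 and Barhl1 were counted at E17.5 in the same pair of cells alone. The part of depth and plate in these lower numbers was not tested.

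Hair cells of E18.5 were next divided by scores of markers of inner (IHC), outer (OHC) and vestibular (VHC) hair cells, again without the 9 members. This gave 24 IHC-like, 12 OHC-like and 27 VHC-like cells, and left 6 without a name. A minimum on a cell's own score was part of the rule and was added after the members' values had been seen. Such names stand for ranges of a score, not for types: 4 of the 69 cells lay within 0.1 of a line between inner and outer, and 0 within 0.1 of the vestibular line. The median summed OHC markers were 701 CPM in OHC-like, 149.7 in IHC-like and 130.3 in VHC-like cells, and the VHC markers 4105 CPM in VHC-like against 346 and 420 CPM in IHC-like and OHC-like cells. The IHC markers set IHC-like cells (2496 CPM) apart from OHC-like (145 CPM) far more than from VHC-like cells (1907 CPM). None of the IHC markers was among the 10 leading genes of IHC-like cells, which held Gjb2, Lum and Dcn, and Fgfr3, a supporting cell marker here, led OHC-like cells. Summed supporting cell markers had medians of 5683 CPM in IHC-like, 1075 in OHC-like and 3491 in VHC-like cells. Mesenchymal markers summed to 218 to 455 CPM in IHC-like against 21.1 to 40.9 in OHC-like sums, and glial markers to 974 to 1232 against 252 to 300 CPM. The part of these markers in the differences below was not tested, beyond leaving out a sub-cluster led by Col1a2, after which 6 and 11 of 12 IHC-like cells remained per plate. Median depth was alike, at 377172, 340241 and 328992 counts per cell.

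**Figure D2:**
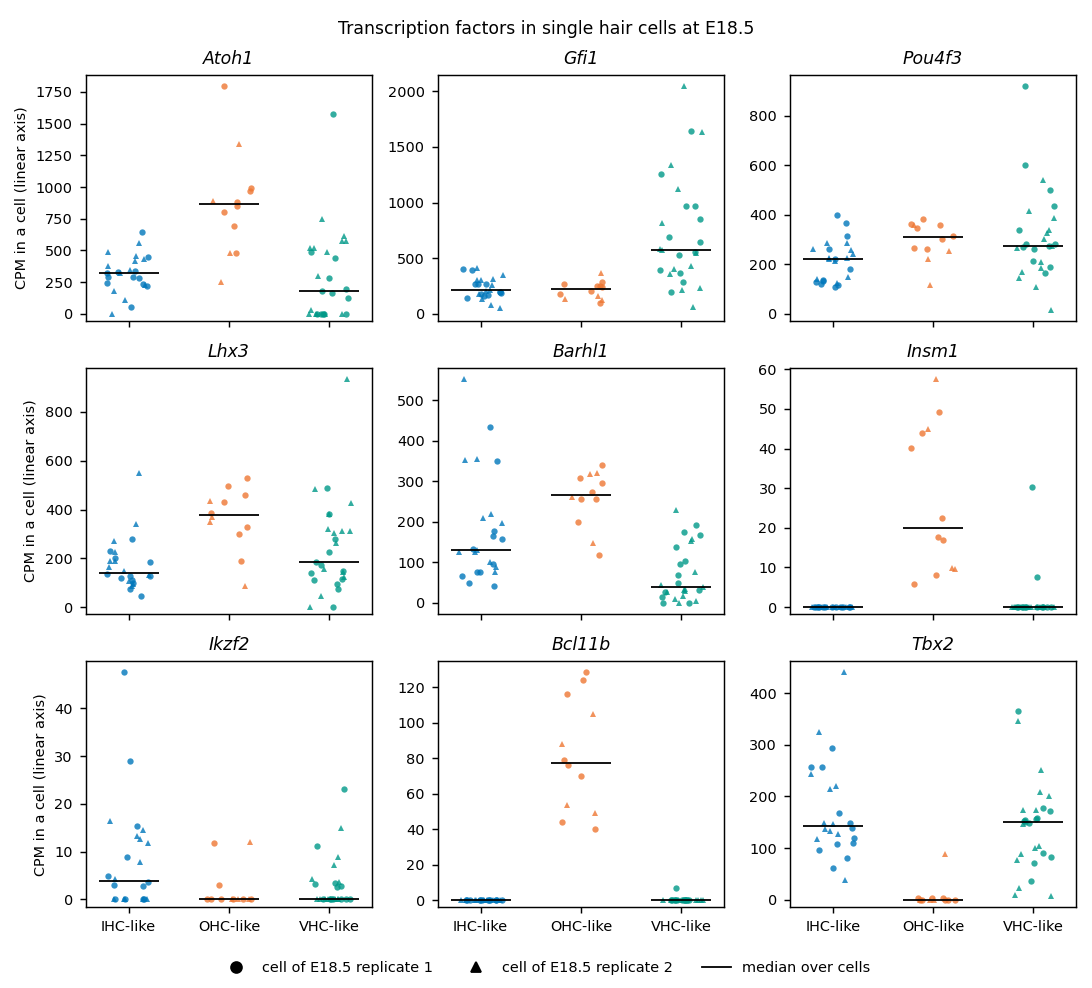
CPM of each member in single hair cells of E18.5, on linear axes of their own; circles are cells of replicate 1, triangles of replicate 2, and lines the medians of 24 IHC-like, 12 OHC-like and 27 VHC-like cells. In the subclasses as named here, Insm1 and Bcl11b are counted in every OHC-like cell and in no IHC-like cell, and Tbx2 is low in OHC-like cells.

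Between OHC-like and IHC-like cells 5 members differed. Bcl11b, Insm1, Atoh1 and Lhx3 were higher in OHC-like cells, and Tbx2 was lower. Of 12971 genes tested, 3.32% were higher and 4.95% lower. The median log2 fold change was 0.56 over the members and -0.02 over all genes.

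Bcl11b was at 78.8 and 81.5 CPM in the OHC-like sums of replicates 1 and 2, and at 0 in both IHC-like sums. It was found in 12 of 12 OHC-like cells, at 40.5 to 128.5 CPM (median 77.6), and in 0 of 24 IHC-like cells, which allows, at 3 cells of 24, a share of cells with a count of up to 12.5%. Bcl11b was thus at least 244-fold higher in OHC-like cells, and edgeR's test gave an adjusted p of 0.000126 after Benjamini-Hochberg adjustment. Insm1 followed it, at 24.4 and 32.1 CPM in the OHC-like sums and 0 in both IHC-like sums, which makes it at least 82.8-fold higher (edgeR adjusted p 0.0116 after Benjamini-Hochberg adjustment). Under DESeq2 the Insm1 call was lost (adjusted p 0.0577) at a log2 fold change of 9.40, against 9.65 in edgeR, neither of which is a bound. It too was in 12 of 12 OHC-like and 0 of 24 IHC-like cells, at 5.90 to 57.5 CPM. The minimum score, added after these values had been seen, kept 2 further cells of E18.5 from the OHC-like name. That of replicate 1 held no count of either gene, and that of replicate 2 held 4.21 CPM of Insm1 and 8.42 CPM of Bcl11b. Their Tbx2 levels were 28.0 and 10.5 CPM. The study used Bcl11b and Insm1 to recognise outer hair cells, so their presence in cells named by other OHC markers is not a finding of its own. As a background for such shares, 31.9% and 38.4% of the 627 SGN-like cells of E18.5 held a count of Bcl11b and of Insm1.

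Tbx2 showed the reverse pattern. Its sums were 157 and 183 CPM in IHC-like cells and 1.16 and 7.05 in OHC-like cells, with a log2 fold change of -5.68 and an SE of 0.49 (edgeR adjusted p 8.81e-05 after Benjamini-Hochberg adjustment). It was -4.69 without replicate 1 and -7.03 without replicate 2, values for which no test exists. Tbx2 was counted in 24 of 24 IHC-like cells at 38.1 to 440.2 CPM, and in 4 of 12 OHC-like cells. The highest of the 4, at 88.4 CPM, was the shallowest OHC-like cell, with 101806 counts, and the other 3 lay between 2.95 and 4.01 CPM.

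Atoh1 was 899.8 and 848 CPM in the OHC-like sums and 306 and 346 CPM in the IHC-like sums. The log2 fold change was 1.42 (SE 0.19, edgeR adjusted p 0.00108 after Benjamini-Hochberg adjustment), and the medians of single cells were 867 and 319.6 CPM. Lhx3 was 379.8 and 356 CPM in OHC-like against 142 and 210 CPM in IHC-like sums, which is 1.06 higher on the log2 scale (SE 0.26, adjusted p 0.0307 by edgeR and Benjamini-Hochberg). The Lhx3 call was lost in 4 of 11 alternative settings, among them the exclusion of 18 HC-like cells of a sub-cluster led by Col1a2 (edgeR adjusted p 0.0700 after Benjamini-Hochberg adjustment), while Atoh1, Bcl11b and Tbx2 kept theirs in all 11. Untested, Lhx3 was 0.76 without replicate 1 and 1.42 without replicate 2.

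Gfi1, Pou4f3, Barhl1 and Ikzf2 did not pass the test between OHC-like and IHC-like cells. Gfi1 was 213 and 178 CPM against 238 and 233 CPM, a log2 fold change of -0.26 (SE 0.20). Barhl1 was 251 and 279 CPM against 143.3 and 216 CPM (log2 fold change 0.56, SE 0.28). Pou4f3 differed by 0.45 (SE 0.21) on the log2 scale. Ikzf2, the factor of the outer hair cell programme, was at 1.94 and 3.92 CPM in OHC-like and 10.4 and 7.39 CPM in IHC-like sums, a log2 fold change of -1.65 (SE 0.89) whose interval includes no difference. Both values rest on 10 counts in OHC-like cells, with a count in 3 of 12 OHC-like and 15 of 24 IHC-like cells.

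**Figure D3:**
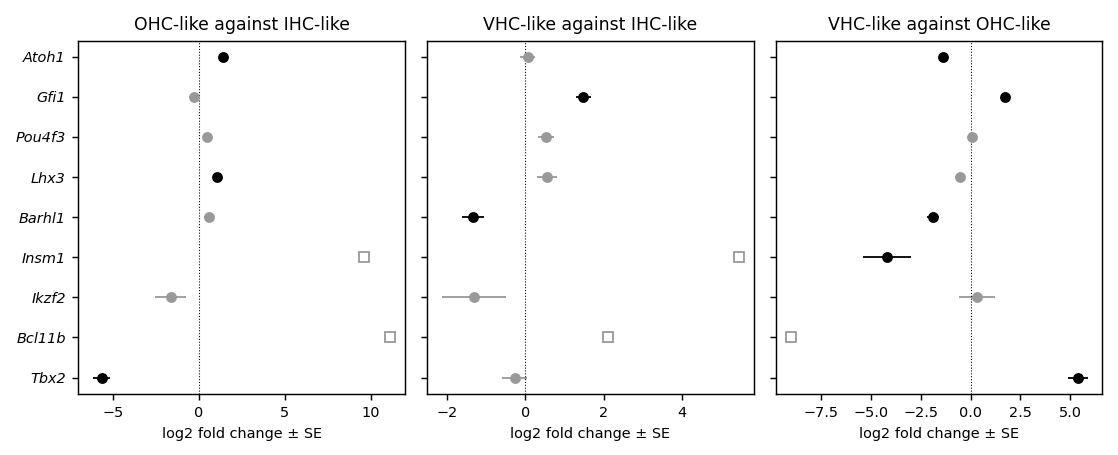
Log2 fold changes between subclasses at E18.5 with their standard errors, from edgeR on 2 plates per subclass; black marks an adjusted p under 0.05, grey the others, and open squares a subclass at or near 0 counts, whose fitted value is no bound. Tbx2 lies far to one side in both comparisons that involve OHC-like cells, and Gfi1 in both against VHC-like cells.

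VHC-like cells were marked by high Gfi1 and low Barhl1. Gfi1 stood at 700.1 and 609 CPM in VHC-like sums, above the 233 and 238 CPM of IHC-like and the 178 and 213 CPM of OHC-like sums. Barhl1 was 88.8 and 53.6 CPM in VHC-like sums, below the lowest of the other sums, at 143.3 CPM. Against IHC-like cells the log2 fold change was 1.48 (SE 0.20) for Gfi1 and -1.34 (SE 0.29) for Barhl1, with edgeR adjusted p of 0.000828 and 0.0129 after Benjamini-Hochberg adjustment. These were the 2 members called, where 5.76% of genes were higher and 4.80% lower in VHC-like cells. The VHC-like sums include 10 cells of few genes, described below. With hair cells of more than 8000 genes alone, a setting added after the data had been seen, Gfi1 was 0.98 (SE 0.20, edgeR adjusted p 0.0172 after Benjamini-Hochberg adjustment), and the Barhl1 call was lost at -1.20 (SE 0.32, adjusted p 0.0503). Barhl1 also moved with the plates, to -2.02 without replicate 1 and -0.69 without replicate 2, both untested.

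Against OHC-like cells, 6 members were called, 2 higher and 4 lower in VHC-like cells, where 9.13% of genes were higher and 6.42% lower. Tbx2, at 141.97 and 139.001 CPM in VHC-like sums, was higher by a log2 fold change of 5.40 (SE 0.49), and Gfi1 by 1.74 (SE 0.20). Their edgeR adjusted p values after Benjamini-Hochberg adjustment were 5.23e-05 and 0.000204. Atoh1, at 312 and 365 CPM in VHC-like sums, had a log2 fold change of -1.37 (SE 0.19), Barhl1 of -1.90 (SE 0.29) and Insm1 of -4.20 (SE 1.22), with edgeR adjusted p of 0.000617, 0.00136 and 0.0437 after Benjamini-Hochberg adjustment. Bcl11b had 1 count in VHC-like against 307 in OHC-like cells, a ratio of 0.00140 (95% counting interval 3.54e-05 to 0.00787). The Insm1 call was lost in 6 of 11 alternative settings, such as DESeq2 (adjusted p 0.436, log2 fold change -4.17), and its untested values were -9.87 without replicate 1 and -2.94 without replicate 2. Tbx2 was 4.28 and 6.89 without these plates, again untested. In cells of more than 8000 genes, the log2 fold change against OHC-like cells was 1.28 for Gfi1 and -0.95 for Atoh1, and both stayed called. Tbx2 was not called between VHC-like and IHC-like cells (log2 fold change -0.28, SE 0.32), nor was Atoh1 (0.06, SE 0.18).

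With the IHC-like and OHC-like coefficients averaged, 4 members differed between VHC-like and cochlear cells, where 9.28% of genes were higher and 5.66% lower. Gfi1 was higher by a log2 fold change of 1.61 (SE 0.16) and Tbx2 by 2.56 (SE 0.33), the latter an average of an IHC-like level close to that of VHC-like cells and an OHC-like level far below. Barhl1 was lower (-1.62, SE 0.27), as was Atoh1 (-0.66, SE 0.16, edgeR adjusted p 0.0203 after Benjamini-Hochberg adjustment), a call lost when no minimum was set on a subclass score and in cells of more than 8000 genes (-0.26, edgeR adjusted p 0.298 after Benjamini-Hochberg adjustment). Without replicate 1 and replicate 2, untested, Barhl1 was -2.21 and -1.09, and Tbx2 1.94 and 3.37. Bcl11b and Insm1, absent from IHC-like cells, have no usable value in this average.

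**Figure D4:**
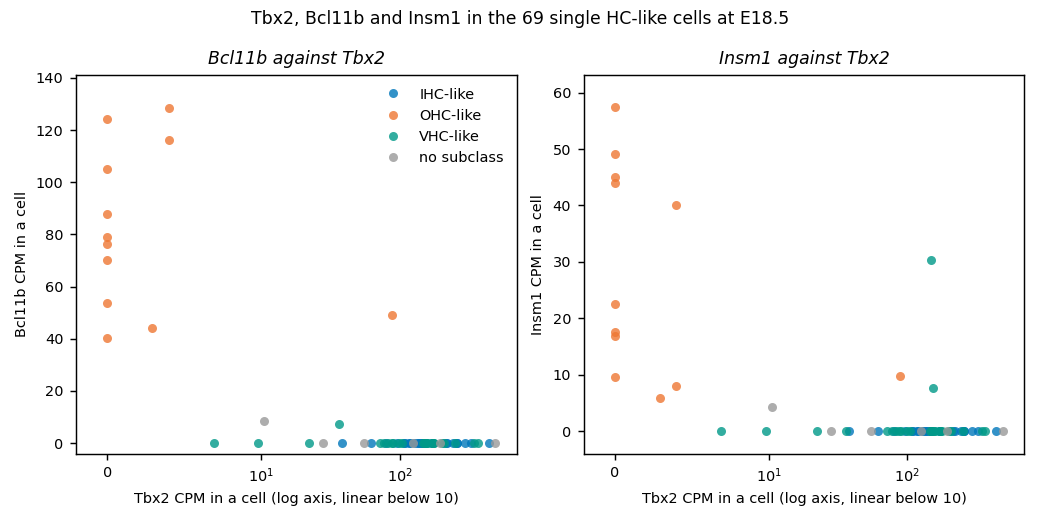
Bcl11b (left) and Insm1 (right) against Tbx2 in the 69 HC-like cells of E18.5, in CPM, coloured by subclass; the Tbx2 axis is linear below 10 and logarithmic above. Cells with 10 CPM or more of Bcl11b lie at low Tbx2, with 1 cell at 10 CPM or more of both.

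Tbx2 and Bcl11b were nearly exclusive in single hair cells. At 10 CPM or more, 11 of 69 cells held Bcl11b alone, 55 held Tbx2 alone, 1 held both and 2 neither. With any count, 6 cells held both and none lacked both. Insm1 and Bcl11b went together: 13 cells held counts of both, 2 of Insm1 alone, 1 of Bcl11b alone and 53 of neither. Over the 69 cells, which share 2 plates and the subclasses named above, Spearman's rho was 0.88 for Insm1 with Bcl11b and -0.67 for Tbx2 with Bcl11b.

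**Figure D5:**
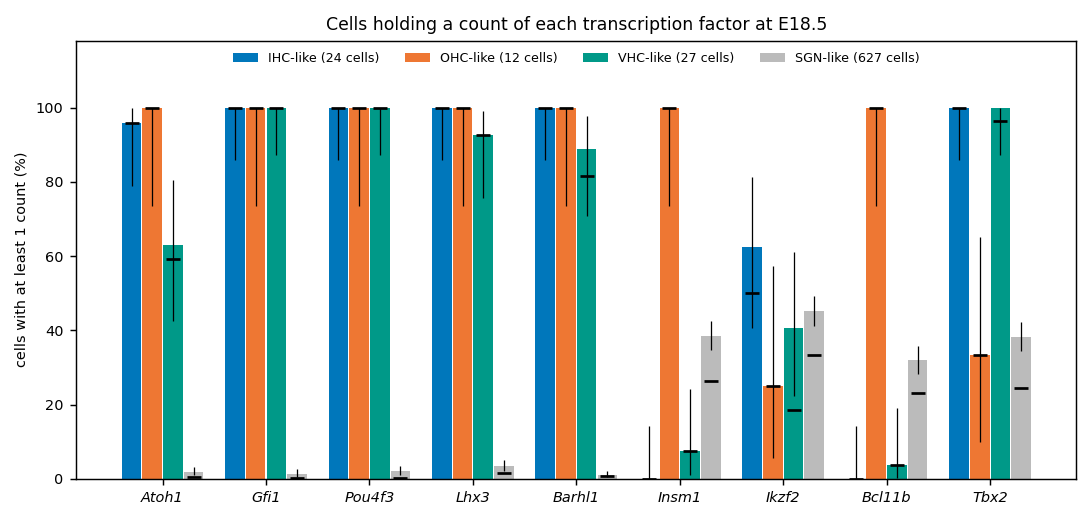
Share of cells of E18.5 with at least 1 count of each member in 24 IHC-like, 12 OHC-like, 27 VHC-like and 627 SGN-like cells; lines are exact 95% binomial intervals, which cover counting error alone, and black ticks the share after each cell was thinned to 100000 counts. Insm1, Ikzf2, Bcl11b and Tbx2 are counted in 31.9% to 45.1% of SGN-like cells, and the other 5 members in at most 3.35%.

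VHC-like cells were mixed in Atoh1, in step with the number of genes per cell. Atoh1 was counted in 17 of 27 VHC-like cells (63.0%, exact 95% interval 42.4% to 80.6%), against 23 of 24 IHC-like and 12 of 12 OHC-like cells, and in 16 of the 27 after thinning to 100000 counts. The 10 VHC-like cells without an Atoh1 count, which came from both plates, held 3577 to 7410 genes (median 4363.5), and the 17 with one 8298 to 12596 (median 11163), with no overlap. The 1 IHC-like cell without Atoh1 had 2684 genes. Atoh1 was also counted in cells of few genes at E18.5. It was at 184 CPM in an IHC-like cell with 4763 genes and at 721 CPM in a cell without a subclass with 4238. Thinning makes counts equal, not genes, and the part of cell quality in the values that follow was not tested. The 10 cells had Gfi1 at 198 to 2050 CPM (median 1186), and the 17 with one at 65.7 to 973 CPM (median 532). Lhx3 had medians of 119.8 CPM without and 305 CPM with Atoh1, and Tbx2 of 79.8 and 152 CPM. Ikzf2 was counted in 1 of the 10 and in 10 of the 17. Pou4f3 had medians of 282 and 272 CPM. This split was chosen after the values were seen and is a description, with no test.

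Ikzf2 was found in few counts throughout. In the thinned cells it was counted in 12 of 24 IHC-like, 3 of 12 OHC-like and 5 of 27 VHC-like cells. These shares lie on both sides of the 33.3% of SGN-like cells, which also held glial markers. It had 150 counts in HC-like cells of E18.5.

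Between E18.5 and E16.5, no gene was called among 12895 tested in HC-like cells by edgeR (percent called 0), and 745 had an unadjusted p under 0.05. DESeq2 called 32 genes. The median log2 fold change was 0.27 over the members and 0.20 over all genes. Bcl11b (unadjusted p 0.0356) and Insm1 (unadjusted p 0.0387) had the smallest unadjusted p values of the members in edgeR's quasi-likelihood test, with Insm1 at 0 on both E16.5 plates. The E16.5 sums held 0 OHC-like cells and the E18.5 sums 12, and the part of this difference was not tested. With Leiden sub-clusters in place of single-cell scores, 2 cells of E16.5 replicate 1 fell in the outer sub-cluster. The 2 E16.5 sums differ in the number of genes per cell (medians 9954.5 and 3031), and stage cannot be told apart from the plate series at this number of plates. Without E16.5 replicate 1 the comparison called 8126 genes and 8 members, and without E16.5 replicate 3 it called 1054 genes and 1 member. Each leaves a single E16.5 sum, assumed to vary like the E18.5 plates, and nothing is read from these counts.

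Paralogues of the members were counted as a fixed list of 16 genes, 10 of which were tested between classes. Against SGN-like cells, Lhx4, a close relative of Lhx3, and Ikzf1 were higher in HC-like cells, with log2 fold changes of 6.21 (SE 1.82) and 3.21 (SE 1.203), where 33.4% of all genes were called in either direction. Pou4f2 (-8.79, SE 1.90), Pou4f1 (-5.68, SE 1.50) and Bcl11a (-1.55, SE 0.59) were lower. Pou4f1 and Pou4f2, which act in sensory neurons, averaged 134 and 62.2 CPM in SGN-like and 3.44 and 0.116 CPM in HC-like sums, the opposite of Pou4f3. Against glia-like cells, Pou4f2 and Tbx3 were lower, and none of the 10 was higher, where 14.6% of all genes were lower and 14.1% higher. Against OM-like cells Pou4f2 was lower and again none was higher, where 13.7% of all genes were lower and 12.8% higher. Lhx4 was also higher in OM-like than in SGN-like cells, where 10.8% of all genes were higher. Among subclasses, where 6 were tested, Bcl11a was higher in OHC-like than in IHC-like cells (log2 fold change 2.14, SE 0.36), at a mean of 113 against 25.7 CPM, where 3.32% of all genes were higher. Ikzf4 was higher in VHC-like cells, at a mean of 33.7 CPM against 2.43 in IHC-like and 3.33 in OHC-like cells, where 5.76% and 9.13% of all genes were higher.

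Other regulators of hair cell formation, 33 genes of the Notch, Id, E-protein, Rfx and related groups, were all tested between classes. Against SGN-like cells 17 were higher and 4 lower in HC-like cells, with a median log2 fold change of 0.97. Of all genes, 17.6% were higher and 15.9% lower, with a median of -0.07. Emx2, a patterning factor of the sensory epithelium, had the largest difference (8.84, SE 1.45) and Rfx1 the smallest (0.85, SE 0.32). Nhlh2 (-6.89, SE 1.90), Prox1 (-2.93, SE 0.99), Id1 (-1.96, SE 0.55) and Id3 (-1.09, SE 0.31) were lower. Jag1, Notch1, Heyl and Sox2, genes also active in supporting cells, were among those higher, at supporting cell marker levels given above.

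Against glia-like cells 10 of the 33 regulators were higher and 3 lower in HC-like cells, from Nhlh1 (log2 fold change 7.10, SE 1.27) to Hes1 (-4.74, SE 1.06), where 28.7% of all genes were called in either direction. Against OM-like cells 10 were higher and 3 lower, down to Hes1 (-5.53, SE 1.13), where 26.5% of all genes were called. Hes1, a Notch target that holds back Atoh1, and Id3, which blocks basic helix-loop-helix factors, were lower in both.

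Between OHC-like and IHC-like cells 5 regulators were higher and 2 lower of 32 tested, where 8.26% of all genes were called. Prox1, a homeodomain factor of outer hair and supporting cells, had the largest difference, at a mean of 100.3 against 2.22 CPM (log2 fold change 5.45, SE 0.54). The Notch ligands Dll3 (2.88, SE 0.32) and Dll1 (1.89, SE 0.21) and Hes6, a Notch antagonist (1.83, SE 0.22), were higher too, and Nhlh1 least (1.36, SE 0.35). Jag1 (-1.72, SE 0.27) and Heyl (-1.41, SE 0.34) were lower. Fgfr3 and Jag1 are on the supporting cell list.

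VHC-like cells were set apart by Gata3, a zinc-finger factor of the cochlear epithelium. Its means were 1249 CPM in IHC-like, 667 in OHC-like and 16.2 in VHC-like sums, and it had a log2 fold change of -5.32 (SE 0.49) against OHC-like cells, with an edgeR adjusted p of 5.67e-05 after Benjamini-Hochberg adjustment. Of 32 regulators tested, 2 were higher and 10 lower in VHC-like than in OHC-like cells, where 15.6% of all genes were called in either direction, and 5 were higher and 6 lower than in IHC-like cells, where 10.6% were called. Heyl (1.34, SE 0.34) and Id4 (1.02, SE 0.25) were those higher than in OHC-like cells.

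Genes whose levels ran most like each member were ranked by Spearman's rho over the 69 HC-like cells of E18.5, among 12875 genes, as a description, since cells share their plates and subclasses. Grp (0.85) and Miat (0.83) were among the genes nearest to Atoh1, and Lhx3 was its nearest member (0.68). Gfi1 was nearest to Pgm2l1 (0.75), Ppp1r32 (0.74) and 1110017D15Rik (0.70). Barhl1 was nearest to Tpm1 (0.80), Tesc (0.75) and Gng8 (0.75), and Lhx3 to Slc43a1 (0.72), Dll1 (0.70) and Kcnh7 (0.69). Insm1 and Bcl11b were nearest to each other and next to Cacng2 (0.81 and 0.86), followed by Neurod6 (0.79), an OHC marker used for naming, and Fgfr3 (0.82). The likest genes of Pou4f3 (Hspa2, 0.64), Tbx2 (Siva1, 0.61) and Ikzf2 (Car2, 0.60) had the lowest rho.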

How the data were processed

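The authors mapped Smart-seq2 reads with STAR to mm10 plus the ERCC spike-in sequences, kept uniquely mapped reads, and deposited raw read counts per gene and well for all plates in 1 table. Per the labels, Scanpy was also used, with no version given, and the use of strand in counting is not given in the sources used here. The 24489 genes were checked to hold whole numbers. A plate of 384 wells that belongs to no sample was not used.

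Wells with more than 1000 genes and an ERCC share under 5% were kept as cells, which left 4226 of 4608 wells, and 2262 of 2304 at E16.5 to E18.5. Cells were clustered with scanpy 1.11.5 (leidenalg 0.10.2, pandas 2.3.3, scipy 1.17.1 and numpy 2.4.6, all under python 3.11.15): scaling to 1000 counts per cell, genes in at least 3 cells, 2000 variable genes, 30 components, 30 neighbours, Leiden resolution 1, seed 0. The 9 members, their paralogues, the list of regulators and 1364 genes of a glial code stayed out of features and scores. A cluster was named at a mean z score of at least 0.25 with at least 3 markers. The study used Bcl11b and Insm1 to name outer hair cells, and here they named none. No doublet caller was run, and leaving out the 5% of cells with the highest counts is an alternative.

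A hair cell was VHC-like with a vestibular score above 0 (at E18.5 the lowest such score was 0.193 and the highest of the other cells -0.183), and otherwise IHC-like or OHC-like where that score led by at least 0.25. A minimum of 0 on the cell's own score was added after the members' values had been seen, because cells without OHC markers were being called OHC-like. It withheld a name from 6 cells, 2 of them at E18.5, and the rule without it is carried as an alternative. In all, 16 HC-like cells have no subclass.

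Counts were summed per class and plate, with at least 5 cells a sum (3 for HC-like cells), and tested with edgeR 4.0.16 in R 4.3.3 (TMM, filterByExpr, glmQLFit, glmQLFTest, Benjamini-Hochberg over all genes tested). Stage was a term of the fit between classes. Standard errors were taken from the fold change and its F statistic. DESeq2 1.42.0 and limma 3.58.1 were installed, and the former served as an alternative. A plate, which by the study's account pools at least 3 embryos, is 1 replicate. Whether plates of a stage share embryos is not given in the sources used here, so p-values measure the spread between plates, which may be technical. Counting intervals are exact, at 95%, floors are 3 counts over a class, and both cover counting error alone, since the reads carry no molecular barcodes. Positions and lengths come from GENCODE vM21, promoters from RefSeq.

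The fit was tested on simulated data made from these sums. Same-numbered sums come from 1 plate. Their deviations from the class means correlated at -0.195 to 0.531 (median 0.107, 16 of 30 pairs over 0.1), so the plate as a block is an alternative. The members, lists and comparisons were chosen with earlier results of these data known. All 9 members are reported, with the paralogues and regulators by counts and by their largest and smallest called values, and up to 3 genes most like each member among those counted in at least 20% of the cells. A result that needs a withheld item is not reported here.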

Additional observations from a re-analysis of the deposited data

Results flagged for a closer look

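In 8 of 32 groups of 4 to 6 plates, the highest or lowest plate lay far from the others by Dixon's test at 95%. That test's rate of 1 in 20 holds for normally distributed values and cannot be set against these groups. A group with counts on 1 plate alone is always picked, as with Barhl1 and Lhx3 in OM-like and Barhl1 in glia-like cells. In HC-like cells the plates picked were Atoh1 at 0 CPM on E16.5 replicate 3 (8 cells), where the median was 444. Pou4f3 was picked at 125 CPM at E17.5 (5 cells), where the median was 263. In SGN-like cells Pou4f3 stood at 2.12 CPM on E16.5 replicate 3, with 34 counts. The others were Barhl1 in glia-like cells (0.0376 CPM, 2 counts) and OM-like cells (0.0550 CPM, 1 count) of E16.5 replicate 3, Lhx3 (1.68 CPM, 3 counts) and Bcl11b (7.28 CPM) in the 6 OM-like cells of E18.5 replicate 1, and Insm1 in the 10 OM-like cells of E16.5 replicate 2 (12.2 CPM).

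For Insm1 and Bcl11b, differences of HC-like cells from other classes had opposite signs at E16.5 and E18.5, and the change between stages was not tested. For Insm1 the values at E18.5 were so small that they show no clear direction. On the log2(CPM + 1) scale, differences from SGN-like cells of the same plate were -3.996 and -3.34 at E16.5 and 0.13 and 0.16 at E18.5 for Insm1. For Bcl11b they were -3.06 and -3.64 at E16.5 and 1.42 and 0.98 at E18.5, and against glia-like cells -1.47 and -3.00 at E16.5 and 1.14 and 1.88 at E18.5. The E16.5 values rest on 4 and 8 HC-like cells with 1 count of Bcl11b and 0 of Insm1 in all, and the added 1 CPM sets their size. With 3 counts as a floor in place of 0, the log2 ratio of TMM-normalised CPM to SGN-like cells was at most -3.196 and -2.52 for Insm1, and for Bcl11b on E16.5 replicate 3 at most -2.85 against SGN-like and -2.13 against glia-like cells.

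Members were also counted in cells outside the comparisons, above the highest of the SGN-like, glia-like and OM-like levels of E16.5 to E18.5. In the 126 cells without a class this was Lhx3, at 0.317 CPM from 2 cells. In 723 cells of E14.5 these were Atoh1 at 2.32 CPM (5 cells), Gfi1 at 0.133 CPM (1 cell), Pou4f3 at 0.903 CPM (7 cells), Lhx3 at 0.276 CPM (3 cells), Insm1 at 10.6 CPM (76 cells) and Bcl11b at 15.1 CPM (128 cells). The E14.5 cells mix driver lines, 343 of PVcre;Ai14 and 380 of TrkCcre. Atoh1 was 0.358 CPM (1 cell) in the former and 4.09 CPM (4 cells) in the latter, Gfi1 0 and 0.252 CPM, Lhx3 0.0560 and 0.474, Pou4f3 0.661 and 1.12, Insm1 15.55 and 6.21 and Bcl11b 17.6 and 12.7 CPM. In 740 cells of E15.5 they were Atoh1 at 4.49 CPM (10 cells), Gfi1 at 1.04 CPM (6 cells), Pou4f3 at 1.79 CPM (3 cells) and Lhx3 at 1.79 CPM (4 cells).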

How the results depend on the processing

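The calls of the 6 members higher in HC-like than in SGN-like, glia-like and OM-like cells held in all 16 alternative settings, except that DESeq2 gave Pou4f3 no adjusted p. With the plate as a replicate block no member's call changed, while 3 uncalled values changed sign: Ikzf2 against SGN-like cells (-0.27), Bcl11b against glia-like cells (0.094) and Lhx3 in VHC-like against cochlear cells (-0.015). Leaving out an E18.5 plate leaves the subclasses with no residual degrees of freedom, so no test. The HC-like cells before E18.5 number 17 and hold 0 counts of Insm1 and 1 of Bcl11b.

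Counts of called genes moved by over 1.5 times as follows. HC-like against OM-like cells had 2736 with larger sums (10 cells, 5 for HC-like), against 4139. Under DESeq2, glia-like against SGN-like cells had 3735 against 2157, OM-like against SGN-like 3854 against 2298, and the stages 32 against 0. OHC-like against IHC-like cells had 1072, but 1705 without a filter on low counts, 686 with subclasses from Leiden sub-clusters and 583 without the minimum on a subclass score. The stages had 8126 genes and 8 members with larger sums, which keep 1 sum at E16.5, and 1054 genes and 1 member without E16.5 replicate 3. With single plates left out, called genes ran from 2981 to 4926 against glia-like and from 2608 to 4321 against OM-like cells (lowest without E18.5 replicate 1), from 683 to 1869 for glia-like against SGN-like cells (lowest without E16.5 replicate 1), from 1299 to 2106 for OM-like against SGN-like cells (lowest without E17.5) and from 0 to 8126 between stages. Called members ran from 1 to 2 and from 0 to 1 for glia-like and OM-like against SGN-like cells, and from 0 to 8 between stages.

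The other values that changed sign were uncalled in the comparison as reported. Ikzf2 against SGN-like cells (0.00) was -0.031 under DESeq2, -0.027 under RLE size factors, -0.17 without a filter, -0.070 without the 5% of cells with the highest counts, -0.066 without the Col1a2 sub-cluster, -1.32 with larger sums, -0.18 with cells named by their own scores and -1.25 to 0.42 with plates left out, and against OM-like cells -1.45 to 0.14. Bcl11b against glia-like cells (-0.01) was 0.076 with the stricter cell filter, 0.18 without the highest counts, 0.21 with larger sums, 0.63 by own scores, 0.85 without the Col1a2 sub-cluster and -1.67 to 0.65 with plates left out. Insm1 was 0.17 against glia-like cells by own scores, and against OM-like cells -0.34 under DESeq2, -0.077 under RLE, -0.081 without a filter, -0.49 without the Egr2 and Nr4a1 cluster and -1.65 to 1.30 with plates left out. In glia-like against SGN-like cells, Gfi1 was 2.37 by own scores, Lhx3 -0.053 with the stricter filter, -0.41 by own scores and -0.19 to 1.20 with plates left out, and Pou4f3 -3.43 to 0.93. In OM-like against SGN-like cells, Gfi1 was 0.46 under DESeq2, and Lhx3 -4.61 with larger sums, -4.42 by own scores and -4.35 to 1.30 with plates left out.

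Among subclasses, in VHC-like against cochlear cells Lhx3 was -0.040 without the highest counts and -0.015 with larger sums, and Insm1 -0.53 with Leiden sub-clusters. With single plates left out, Insm1 ran from -4.93 to 1.77 and Lhx3 from -0.20 to 0.17 there, and in VHC-like against OHC-like cells Ikzf2 from -0.21 to 0.91 and Pou4f3 from -0.015 to 0.135. Against IHC-like cells Atoh1 was -0.13 without the highest counts and -0.038 without the Col1a2 sub-cluster, and Bcl11b -2.42 with Leiden sub-clusters. Against OHC-like cells Pou4f3 was -0.046 with larger sums and -0.11 in cells of more than 8000 genes, and Ikzf2 -0.074 with Leiden sub-clusters and -0.64 without the minimum score. Between stages Gfi1 was -0.43 without VHC-like cells, Ikzf2 8.41 with larger sums, and Pou4f3 0.0039 with the stricter filter, 0.20 without the highest counts, 0.0092 with larger sums, 0.53 without VHC-like cells and 0.046 without the Col1a2 sub-cluster. With plates left out, the stage values ran from -0.22 to 14.39 for Atoh1, -0.47 to 0.95 for Gfi1, -0.14 to 0.023 for Pou4f3, -0.25 to 0.82 for Barhl1, -2.58 to 8.41 for Ikzf2 and -0.45 to 1.77 for Tbx2. The exclusion of the 2 clusters, the minimum of 8000 genes and the rule without the minimum score were added after the data had been seen. The causes were not tested.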
